A study of Caenorhabditis elegans with 4 samples.

Results

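Homeobox genes encode transcription factors, and 60 of them, among them the SIX-family genes, which include unc-39 itself, were examined for peaks of UNC-39 chromatin immunoprecipitation followed by sequencing (ChIP-seq). The genes were taken by name, and 59 of the 60 were located in the Ensembl annotation of the WBcel235 genome (the same assembly as ce11), out of 19973 nuclear protein-coding genes. They comprised 4 SIX-family genes, 6 HOX genes, 7 LIM genes and 42 genes of other classes. The remaining name, ceh-44, was placed only in the RefSeq annotation and is described separately. The window of a gene ran from 2000 bp upstream of its start to its end, and a peak counted where its summit lay in that window. The material was whole Caenorhabditis elegans larvae at the L3 stage, of mixed sex, of strain OP186. This strain carries the unc-119(ed3) allele on chromosome III and the integrated transgene wgIs186, which makes UNC-39 with GFP and FLAG at its C terminus. All 4 samples were biological replicates of this 1 group, so there was no comparison between conditions and no test. The antibody entry in the labels reads unc-39, and a control is named there that was not analysed here. Whole larvae mix all cell types, so a peak could not be assigned to a cell type.

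Homeobox proteins bind DNA through a homeodomain. SIX-family proteins pair it with a SIX-type domain that binds partner proteins such as Eyes absent, HOX proteins give cells position along the body axis, and LIM-homeodomain proteins specify neuron types. In the worm, UNC-39 is known from mesoderm development and from the migration of cells and axons.

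The results turned on few peaks, and the 151 bp around the strongest pooled summits of 5 genes are shown for that reason. The first 4 belonged to the genes whose strongest pooled peak had a summit within 200 bp in at least 3 replicate lists. The last was the strongest SIX-gene peak. The letters are the + strand of the RefSeq WBcel235 genome, and capitals mark TGATAC on either strand, a core letter pattern of SIX-type sites. The stretches lie at chrII:6951313-6951463 (ceh-38, 138 bp upstream of the gene start), chrIII:4451041-4451191 (ceh-43, 1173 bp upstream), chrII:14904047-14904197 (cog-1, in an intron), chrIV:3859090-3859240 (zag-1, in an intron) and chrV:11707283-11707433 (ceh-32, 1958 bp upstream).
ceh-38: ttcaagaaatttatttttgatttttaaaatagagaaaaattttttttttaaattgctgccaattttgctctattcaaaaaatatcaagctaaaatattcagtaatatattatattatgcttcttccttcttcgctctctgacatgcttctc
ceh-43: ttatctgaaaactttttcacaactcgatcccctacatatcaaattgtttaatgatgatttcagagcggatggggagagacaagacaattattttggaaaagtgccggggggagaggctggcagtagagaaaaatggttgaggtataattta
cog-1: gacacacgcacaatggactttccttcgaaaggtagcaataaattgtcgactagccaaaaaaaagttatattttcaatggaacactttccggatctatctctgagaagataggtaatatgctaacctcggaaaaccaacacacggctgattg
zag-1: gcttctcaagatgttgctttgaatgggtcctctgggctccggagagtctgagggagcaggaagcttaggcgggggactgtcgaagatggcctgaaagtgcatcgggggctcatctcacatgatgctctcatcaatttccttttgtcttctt
ceh-32: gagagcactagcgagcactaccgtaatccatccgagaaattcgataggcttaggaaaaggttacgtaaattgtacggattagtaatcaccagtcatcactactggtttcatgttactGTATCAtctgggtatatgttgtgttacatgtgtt
The ceh-38 stretch was AT-rich, with 23.8% G and C, and the zag-1 stretch was the richest of the 5 in G and C, with 52.3%.

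Homeobox genes held pooled peaks about as often as other genes. In the pooled list of 12797 peaks, 27 of the 59 genes (45.8%, 95% interval 32.7 to 59.2%) had a peak in their window, against 44.8% of all protein-coding genes. Of the 27 genes, 17 had 1 peak and 10 had more, and unc-62, the worm MEIS gene, had the most with 6. The windows held 43 pooled peaks, or 1.11 per 10 kb, against 1.36 per 10 kb over the windows of all protein-coding genes and 1.27 over the nuclear genome. Intervals here are exact binomial (Clopper-Pearson) and cover counting error over genes alone.

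No homeobox gene held a peak of the reproducible list, the authors' thresholded list of 110 peaks, of which 86 were nuclear. A count of 0 of 59 has an upper 95% bound of 6.06%, and 0.436% of all protein-coding genes held such a peak. The deposited q-value of the members' strongest pooled peaks ran from 0.211 for ceh-38 to 0.961. The replicate lists differed in this value. Its lowest was 0.116 (ceh-32) in replicate 1, 0.320 (ceh-51) in replicate 2 and 0.00162 (ceh-38 among others) in replicate 4. In replicate 3 the lowest was 0.000517 (ceh-38 among others), and the highest, at lim-4, was 0.0370. The lim-4 peak stood at percentile 2.9 of that list, so most peaks of the list were stronger. Of the 2000 strongest pooled peaks, a peak lay in the window of 4 homeobox genes (6.78%) and of 9.67% of all genes. These 4 were ceh-38, ceh-43, ceh-5 and cog-1.

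The short list of replicate 3 gave a lower share than the other replicate lists. Replicate 1 and replicate 2 had 30000 peaks each, replicate 4 had 29529 and replicate 3 had 13225. A peak was present at 46 homeobox genes in replicate 1 (78.0% against 73.3% of all genes), at 49 in replicate 2 (83.1% against 74%), at 29 in replicate 3 (49.2% against 45.3%) and at 50 in replicate 4 (84.7% against 71.2%). The share of homeobox genes was thus the higher in each list, and in replicate 4 its interval of 73.0 to 92.8% lay above the share of all genes. The homeobox windows were longer, with a median of 5637 bp against 4027 bp, and the part that this length plays was not tested. Counted by length, the windows of homeobox genes held 3.21, 3.03, 1.08 and 3.14 peaks per 10 kb in replicates 1 to 4, and those of all genes 3.18, 3.17, 1.40 and 3.06.

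**Figure D1:**
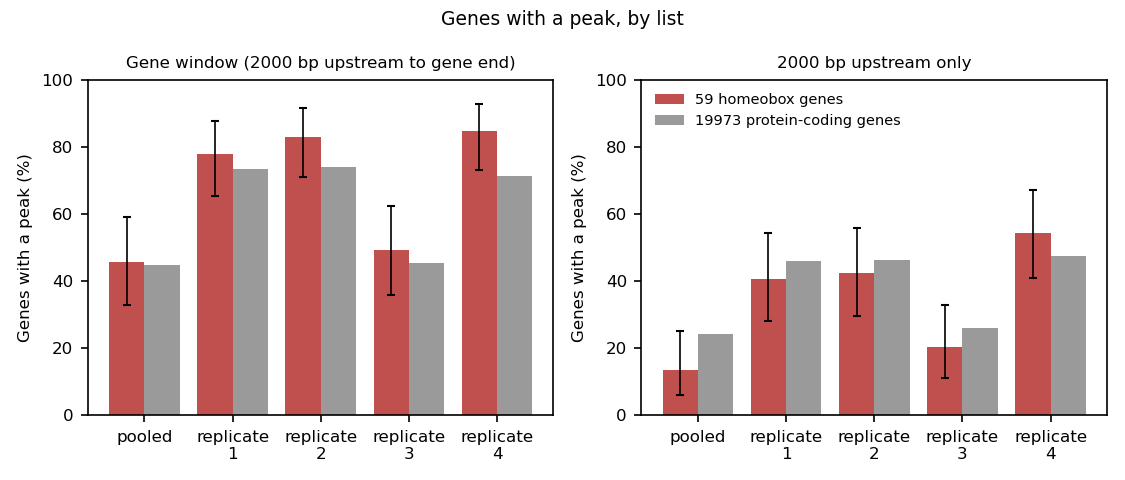
Share of genes with a peak (%) in the pooled list and the 4 replicate lists, for the whole window and for the 2000 bp upstream alone, in 59 homeobox genes (red, with exact 95% intervals) and 19973 protein-coding genes (grey). In the whole window the pooled shares were 45.8% and 44.8%, and in the upstream part 13.6% and 24.1%.

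Pooled peaks lay inside genes more often than upstream of them, both at homeobox genes and over all genes. The 2000 bp upstream held a pooled peak at 8 homeobox genes (13.6%, interval 6.04 to 24.98%), against 24.1% of all genes. The upstream count was 24 in replicate 1 (40.7% against 46%), 25 in replicate 2 (42.4% against 46.4%), 12 in replicate 3 (20.3% against 26.1%) and 32 in replicate 4 (54.2% against 47.6%). The share of homeobox genes was the lower in the pooled list and in replicates 1 to 3, and the higher in replicate 4. Each of the 5 intervals held the share of all genes.

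Of the 43 pooled peaks, 10 lay upstream, 16 in exons and 17 in introns. Per length, homeobox windows held 0.847 pooled peaks per 10 kb upstream, 1.83 in exons and 0.927 in introns, against 1.36, 1.61 and 1.15 over all genes. Introns made up 47.2% of the homeobox windows and 33.1% of all windows. The strongest pooled peak of each gene lay upstream in 8 of the 27 genes, in an exon in 7 and in an intron in 12. At 4 genes (ceh-33, ceh-5, ceh-38 and ceh-51) that summit also lay in the window of another protein-coding gene, so it could be assigned to either.

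Each peak's signal is the authors' value, and it was used only to rank peaks within 1 list. A percentile is the share of peaks in the list with a lower signal, so a gene at 90 has a peak stronger than 90% of that list. The lists differ in length, and percentiles of different lists show no change. The median percentile of the strongest peak was 55.3 at the 27 homeobox genes and 59.0 at all genes with a pooled peak. In replicates 1 to 4 it was 76.4, 68.7, 61.4 and 67.2 at homeobox genes, a mean of 68.4 ± 6.16 (SD, n = 4), and 68.5, 68.7, 60.6 and 68.1 at all genes.

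**Figure D2:**
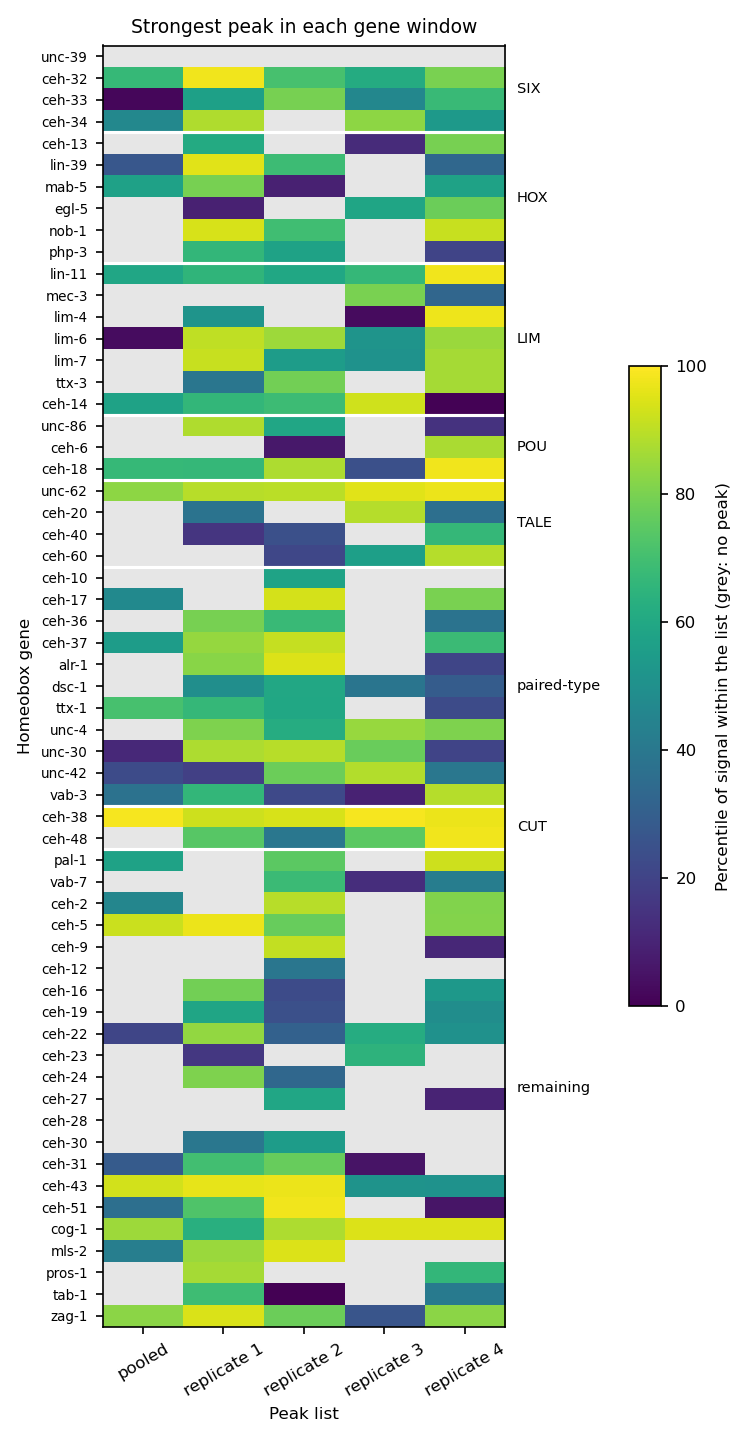
Percentile of the strongest window peak within each list (colour scale, 0 to 100; grey, no peak) for 59 homeobox genes (rows, by class) in the pooled list and the 4 replicate lists (columns). The row of unc-39 is grey throughout, and the row of ceh-38 lies at 92.5 or more in each of the 5 lists.

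Among the SIX-family genes, 3 of 4 had a pooled peak, against 44.8% of all genes. Their median percentile was 46.6, against 59.0 at all genes with a pooled peak. Peaks per 10 kb of their windows numbered 2.5 in the pooled list and 5.5, 2, 1.5 and 2.5 over the replicates in order. Over all genes the values were 1.36 and 3.18, 3.17, 1.40 and 3.06. The window of ceh-32 alone held 3 of the pooled peaks. ceh-32, the worm gene nearest to Six3 and Six6 and known from head development, stood at percentile 67.0 in the pooled list and at 97.9, 70.8, 61.4 and 79.8 in replicates 1 to 4. Its replicate 1 summit lay 1924 bp upstream, close to the pooled one, while the strongest summits of the other replicates lay in introns, 1637, 2409 and 1700 bp inside the gene. Replicate 2 also had a weaker summit within 200 bp of the pooled one.

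ceh-34, which specifies pharyngeal neurons, stood at 46.6 in the pooled list and at 88.2, 82.9 and 54.1 in replicates 1, 3 and 4. It had no peak in replicate 2. Its strongest summits lay 3435 bp inside the gene in the pooled list, 2462 bp inside in replicate 1, 1981 bp inside in replicate 3 and 1108 bp upstream in replicate 4, so no pair of them lay within 200 bp. ceh-33, which lies close by on the same chromosome, stood at 1.6 in the pooled list, near the bottom, and at 56.9, 79.6, 46.3 and 67.8 in the replicates. Its pooled summit, 1133 bp upstream, lay inside the gene C10G8.8. Its strongest summits lay 1094, 459 and 423 bp upstream in replicates 1, 2 and 4, and 841 bp inside in replicate 3.

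unc-39, the gene of the Six4 and Six5 type that encodes the protein under study, had no peak in any list. Of the 59 homeobox genes, ceh-28 was the other with none. The gene lies at chrV:14373074-14375881, and the nearest summit was 16559 bp away in the pooled list and 14140, 16552, 16227 and 17075 bp away in replicates 1 to 4. This surrounding was examined after the gene was seen to have no peak, and the values are a description. The stretch without a summit in any of the 5 lists ran from 14358934 to 14403109, and at 44174 bp it was the 4th longest of 114432 such stretches, whose median was 496 bp. It held 5 protein-coding genes, unc-39, C15H11.1, C15H11.10, npr-43 and C15H11.13.

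Among the 10 longest stretches without a summit, the one around unc-39 had the largest share of sequence found once in the reference genome. Words of 50 bp were read every 10 bp along each of them and looked up in the RefSeq WBcel235 genome. The wgIs186 transgene of the strain is not part of that genome, so unc-39 sequence in it was not counted. In the stretch around unc-39, 96.3% of the words occurred once in the reference genome, against 0.660 to 48.6% in the other 9. Taken list by list, the stretch was 55432 bp long in the pooled list, where it ranked 53 of 12767. In replicates 1 to 4 it was 50693, 46586, 54105 and 53011 bp long and ranked 8 of 29970, 13 of 29974, 38 of 13189 and 7 of 29495. In unc-119, whose ed3 allele the strain carries, the replicate lists in order had 3, 3, 0 and 4 summits and the pooled list had 1. What sets this stretch, or any of the other 9, was not tested, and the control was not analysed.

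**Figure D3:**
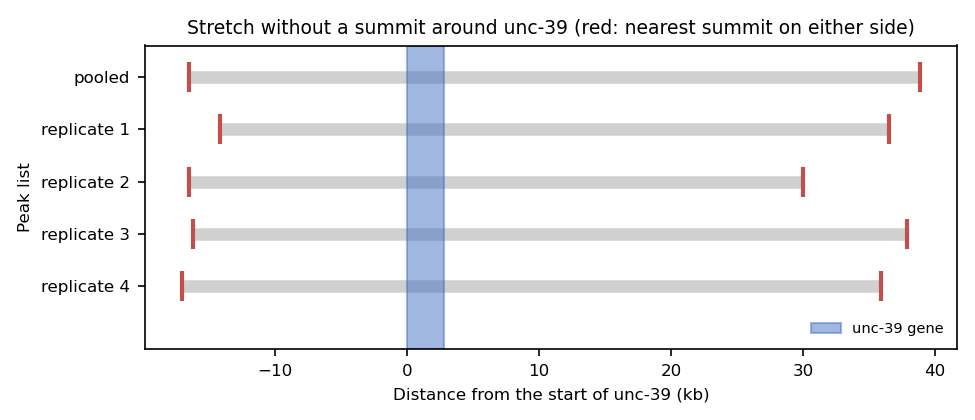
Stretch without a peak summit around unc-39 in the pooled list and the 4 replicate lists (rows), by distance from the gene start (kb). Red ticks are the nearest summits on either side, and blue is the gene. The stretch was between 46586 and 55432 bp long.

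The number of HOX genes with a peak varied with the list, as did the share of all genes. All 6 had a peak in replicates 1 and 4, 4 had one in replicate 2, and the pooled list and replicate 3 had a peak at 2 each. No HOX gene had a peak in all 4 replicates, against 27% of all genes. Of all genes, 44.8% had a peak in the pooled list, and 73.3, 74, 45.3 and 71.2% in replicates 1 to 4. The HOX windows held 0.721 pooled peaks per 10 kb, and the replicate lists in order gave 5.53, 2.88, 0.480 and 3.12. The windows of all genes held 1.36 in the pooled list and 3.18, 3.17, 1.40 and 3.06 in the replicates.

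The HOX genes with a pooled peak were mab-5 and lin-39. mab-5, which patterns the posterior body and directs neuroblast migration, stood at 57.3 in the pooled list and at 79.4, 9.3 and 57.4 in replicates 1, 2 and 4. lin-39, needed for vulval cell fates, stood at 27.1 in the pooled list and at 95.6, 68.7 and 33.3 in the same replicates. Its pooled peak lay in the 3′ UTR exon, and its strongest replicate summits lay 1904 bp inside the gene, 1526 bp upstream and 6368 bp inside.

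The other HOX genes had no pooled peak. nob-1, a posterior gene of the Abdominal-B type, stood at 93.9, 69.2 and 91.5 in replicates 1, 2 and 4, and its neighbour php-3 at 66.2, 57.5 and 20.4. egl-5, which patterns the tail, stood at 9.0, 58.7 and 77.6 in replicates 1, 3 and 4. ceh-13, the labial-type gene, stood at 61.3, 12.2 and 79.3 in the same replicates.

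A pooled peak was found at 3 of 7 LIM genes (42.9%), near the 44.8% of all genes. The LIM windows held 0.552 pooled peaks per 10 kb, the lowest of the 8 classes, against 1.36 over all genes. The replicate lists in order gave 2.02, 2.94, 1.66 and 3.31, against 3.18, 3.17, 1.40 and 3.06. The LIM value was thus the lower in replicates 1 and 2 and the higher in replicates 3 and 4. A peak in each replicate was present at 4 of 7 (57.1%), against 27% of all genes. lin-11, needed in the vulva and in several neurons, stood at 59.3 in the pooled list and at 65.4, 59.6, 66.6 and 97.7 in replicates 1 to 4. ceh-14, of the Lhx3 type, stood at 57.5 in the pooled list and at 66.3, 68.7, 92.7 and 0.6 in the replicates, so its replicate 4 peak was among the weakest of that list. lim-6, of the Lmx1 type, stood at 3.4 in the pooled list and at 90.4, 85.3, 51.6 and 84.9.

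The other LIM genes had no pooled peak. lim-7, of the Islet type, stood at 91.5, 55.4, 51 and 86.6 in replicates 1 to 4. ttx-3, which specifies the AIY interneuron, stood at 39.3, 78.6 and 86.4 in replicates 1, 2 and 4. lim-4, which acts in the AWB olfactory neuron, stood at 51.8, 2.9 and 97.5 in replicates 1, 3 and 4. mec-3, the gene of touch neuron identity, had peaks at 79.7 and 33.1 in replicates 3 and 4.

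SIX-family, HOX and LIM genes together had a pooled peak in 8 of 17 (47.1%), and the other classes in 19 of 42 (45.2%), against 44.8% of all genes. A peak in all 4 replicates was present in 6 of 17 (35.3%) and 13 of 42 (31%), against 27% of all genes. With 2 to 22 genes in a class, the shares were not tested against each other. Pooled peaks were found at 6 of 11 paired-type genes (median percentile 42.4), 1 of 3 POU genes, 1 of 4 TALE genes, 1 of 2 CUT genes and 10 of 22 remaining genes (median 51.7).

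**Figure D4:**
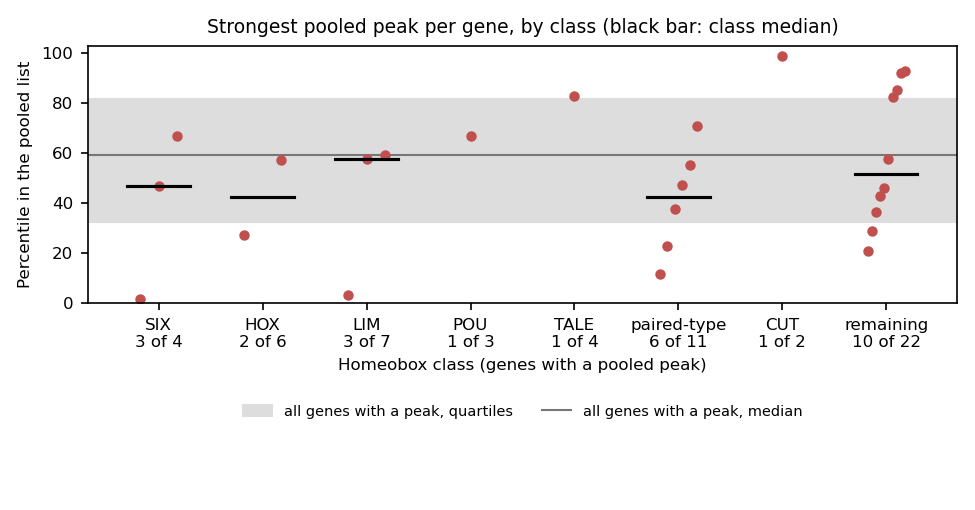
Percentile of the strongest pooled peak (0 to 100) for each homeobox gene with a pooled peak (points), by class, with class medians (black). The grey line and band are the median, 59.0, and quartiles over all genes with a pooled peak. The highest point is ceh-38 at 98.7, and the lowest is ceh-33 at 1.6.

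In the pooled list the strongest homeobox peak was at ceh-38, a ONECUT-type gene. It stood at 98.7 there, rank 164 of 12797, and at 92.5, 94.1, 98.8 and 96.9 in replicates 1 to 4. The replicate summits were 141, 18 and 146 bp upstream of the gene start in replicates 2, 3 and 4, while the strongest summit of replicate 1 was 1616 bp inside the gene. ceh-38 was thus high in each list, and 3 of 4 replicates put its strongest summit at the gene start. It led the homeobox genes in replicate 3 as well, while ceh-32 led in replicate 1 at 97.9, ceh-51 in replicate 2 at 97.9 and ceh-48 in replicate 4 at 97.9. The pooled summit also lay in the window of malt-1.

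Genes in which several lists placed a summit nearby followed. ceh-43, the Distal-less gene, stood at 93 in the pooled list and at 96.3, 97.2, 51.4 and 51 in replicates 1 to 4, high in 2 of them and near the middle in the others. cog-1, of the Nkx6 type, stood at 85.2 and at 63.2, 87.8, 94.8 and 94.7. zag-1, of the ZEB zinc-finger homeobox type, stood at 82.5 and at 94.4, 77.6, 26.4 and 82.7, low in replicate 3.

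unc-62, a partner of HOX proteins, stood at 82.8 in the pooled list and at 89.2, 89.7, 95.4 and 97.1 in replicates 1 to 4. It ranked high in each list, but the strongest replicate summits lay apart, 4996, 7656, 10401 and 10803 bp inside the gene, in a window of 15989 bp. Its strongest pooled summit, 2333 bp inside, had a summit within 200 bp in replicates 1 and 2. ceh-5, of the Vax type, stood at 92.1 and at 97.0, 76.6 and 81.5 in replicates 1, 2 and 4, with a pooled summit that lay inside eat-16 and ocrl-1. ttx-1, the OTX-type gene of the AFD thermosensory neuron, stood at 70.7 and at 66.8, 59.4 and 22.7 in replicates 1, 2 and 4. ceh-18, a POU gene of the gonadal sheath, stood at 66.9 and at 66.7, 87.8, 24.5 and 97.9.

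The remaining 11 genes with a pooled peak ranged from percentile 11.7 at unc-30, the regulator of GABA neuron identity, to 57.6 at pal-1, the caudal-type gene. Between them were ceh-37, ceh-17, ceh-2, mls-2, vab-3, ceh-51, ceh-31, unc-42 and ceh-22. vab-3, the worm Pax6 gene, has the longest window of the 59, at 21691 bp, and stood at 37.5 in the pooled list and at 66.4, 21.9, 9.7 and 89 in replicates 1 to 4. ceh-22, an Nkx2-type gene of pharyngeal muscle, stood at 20.9 and at 83.6, 31.2, 62 and 50.8. unc-30 was low in the pooled list and stood at 87.6, 89.1, 77.2 and 20.5 in the replicates, so it was high in 3 of them.

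Outside the SIX-family, HOX and LIM classes, 23 genes had no pooled peak, and ceh-48, dsc-1 and unc-4 were those of them with a peak in every replicate. unc-4, which sets the synaptic inputs of motor neurons, stood at 80.8, 61.9, 84.6 and 80.8 in replicates 1 to 4. dsc-1 stood at 49.6, 60.02, 38.9 and 29.1, and ceh-48, a ONECUT-type gene like ceh-38, at 74.1, 39.8, 74.7 and 97.9. The 32 genes without a pooled peak included 30 with a peak in at least 1 replicate. By number of replicate lists with a peak, 2 homeobox genes had 0, 2 had 1, 12 had 2, 24 had 3 and 19 had all 4. The counts for 0, 1, 2 and 3 lists made up 3.39, 3.39, 20.3 and 40.7%, against 5.17, 11.96, 23.7 and 32.1% of all genes. The 19 made up 32.2% (interval 20.6 to 45.6%), against 27% of all genes.

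Presence in a window did not mean presence at 1 place. No homeobox gene had its strongest pooled peak matched by a summit within 200 bp in all 4 replicates (0 of 27, upper bound 12.8%), against 3.56% of all genes with a pooled peak. A match in at least 3 replicates was found at 4 of 27 (14.8%, interval 4.19 to 33.7%), against 23.1%. The 4 were ceh-38, ceh-43, cog-1 and zag-1. By replicate, 17 of the 27 pooled summits had a match in replicate 1 (63% against 66.1% of all genes), 22 in replicate 2 (81.5% against 70.6%), 5 in replicate 3 (18.5% against 20.1%) and 7 in replicate 4 (25.9% against 38.1%). The pooled list was made from the same replicates, so these matches are not independent of it.

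**Figure D5:**
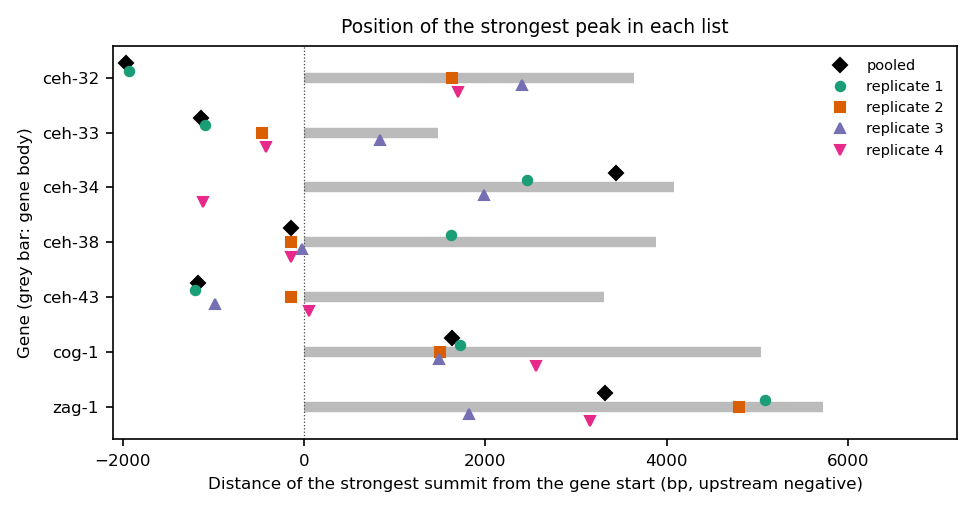
Distance of the strongest summit from the gene start (bp, upstream negative) in the pooled list and the 4 replicate lists (symbols) for 7 homeobox genes (rows; grey bars, gene bodies). At ceh-38 the summits of replicates 2, 3 and 4 lay 141, 18 and 146 bp upstream, and at ceh-34 the symbols spread from 1108 bp upstream to 3435 bp inside the gene.

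Between replicates, the strongest peaks of a gene lay within 200 bp in a mean of 8.08% of homeobox genes with a peak in both lists (range over the 6 pairs 0 to 16.3%), and in 14.4% of all genes (12.2 to 18.1%). Spearman's rho of the percentiles across genes averaged 0.10 over homeobox genes (-0.13 to 0.31) and 0.15 over all genes (0.10 to 0.19). Genes are not independent replicates, and these values are a description.

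Among the 1000 strongest peaks of each list, a peak lay at 2 homeobox genes in replicate 1 (3.39% against 5.02% of all genes), 2 in replicate 2 (3.39% against 4.9%), 4 in replicate 3 (6.78% against 5.23%) and 6 in replicate 4 (10.2% against 4.9%). They were ceh-32 and ceh-5 in replicate 1, ceh-43 and ceh-51 in replicate 2, and ceh-14, unc-62, ceh-38 and cog-1 in replicate 3. In replicate 4 they were lin-11, lim-4, ceh-18, unc-62, ceh-38 and ceh-48. Of these 12 genes, unc-62 and ceh-38 occurred in 2 lists and none in more. Their summits in replicates 3 and 4 lay 402 bp apart at unc-62 and 128 bp apart at ceh-38.

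Letter patterns were found around few summits, both at homeobox genes and over all peaks. The share expected by chance was not computed. Within 75 bp of the strongest pooled summit, on either strand, TGATAC was present at 2 of 27 genes (7.41%), ceh-32 and ceh-33, against 5.1% of 12773 nuclear pooled peaks. TCAGGTTTC with at most 1 mismatch, known as the MEF3 site, to which vertebrate SIX-family proteins bind, was present at 0 of 27, against 4.28%. TAATTA, a homeodomain core, was present at 0 of 27, against 4.31%. A match is a description, and its absence says only that the letters are not in that window. In the 101 bp around the summit, the median share of G and C was 40.6% at homeobox genes, with a range from 20.8% at ceh-38 to 60.4%, and 40.6% over all nuclear pooled peaks.

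Other homeobox genes and genes known to work with SIX-family proteins were counted in the same way. A second list named 41 further homeobox genes, of which 40 were located, and 21 of these (52.5%) had a pooled peak, with a median percentile of 74.8. Another list held 10 genes around the SIX-family proteins, including the Eyes absent gene eya-1, the Dachshund gene dac-1 and the muscle regulators hlh-1 and unc-120. Of these 10, 5 (50%) had a pooled peak, with a median percentile of 65.3. Over all genes the share was 44.8%, and the median percentile of those with a pooled peak was 59.0. In replicates 1 to 4 the median was 71.7, 67.0, 62.1 and 59.5 for the 40 homeobox genes. For the 10 genes it was 84.9, 68.4, 50.6 and 61.6. Over all genes it was 68.5, 68.7, 60.6 and 68.1, so neither list was the higher in each replicate. Neither list held a reproducible peak.

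By chromosome, pooled peaks were found at 4 of 15 homeobox genes on III (26.7% against 51% of all genes there), 8 of 11 on V (72.7% against 40.03%) and 7 of 16 on X (43.8% against 50.2%). The counts were 4 of 8 on I (50% against 47.2%), 2 of 4 on II (50% against 42.1%) and 2 of 5 on IV (40% against 43.5%). On III the share was also the lower in replicates 2 (66.7% against 76.4%) and 3 (40% against 55.7%), but the higher in replicates 1 (80.0% against 75.2%) and 4 (86.7% against 80.4%). On V the share was the higher in each replicate list, with 81.8, 81.8, 54.5 and 81.8% against 71.6, 72.6, 37.5 and 64.0%. The homeobox windows on V had a median of 5637 bp, against 3754.5 bp for all genes there, and the part of this length was not tested. All 6 HOX genes lie on III and all 4 SIX-family genes on V, so class and chromosome cannot be told apart for them. ceh-44, a CUT gene placed by RefSeq at chrIII:2530620-2543068, had 3 pooled peaks, the strongest at percentile 84.7, and stood at 84.4, 85.1, 94.1 and 94.1 in replicates 1 to 4. Its strongest pooled summit lay 9995 bp inside the gene.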

How the data were processed

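UNC-39 ChIP-seq peaks from 4 biological replicates of 1 group, numbered by the labels, were read from the lists on the ce11 assembly; those on ce10 were not used. Per the deposited README files, each replicate has a relaxed list of peaks and background made with a control, the pooled list comes from all 4 alignments, and a list thresholded by the irreproducible discovery rate (IDR) comes from these; it is called reproducible here. Aligner, peak caller and threshold were not given in the sources used here. Signal values are the authors' own, and the deposited −log10 q-value was read by the narrowPeak convention. Read depth is unknown.

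Genes were taken from Ensembl release 115 and sequences from the RefSeq WBcel235 genome, and 0 peaks passed a chromosome end. Tied peaks shared the mean of their percentiles. By rule the named genes are all SIX-family, HOX and LIM genes, the 8 others with the highest pooled percentile, and any with a reproducible peak. The rest appear in counts or lists. Values are given for some of them that this rule did not pick, such as vab-3, ceh-22, unc-30, unc-4, dsc-1 and ceh-48. The genes and lists were chosen with earlier results of these data known, so none of the counts is independent support. The counting was tested on simulated data. Alternatives were another window, a q-value limit, the strongest peaks alone, another summit distance and leaving out each replicate. Protein sequences were not used here. Python 3.11.15, pandas 2.3.3, numpy 2.4.6, scipy 1.17.1 and matplotlib 3.10.9 were used.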

Additional observations from a re-analysis of the deposited data

Results flagged for a closer look

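Values of the 4 replicates were compared for 1 sample far from the others by Dixon's ratio, the gap to the nearest sample over the whole range, in 16 sets of values, and chance gives about 1 such case in 20 sets. The number of peaks per 10 kb of homeobox windows had a ratio of 0.916, with 3.21, 3.03 and 3.14 in replicates 1, 2 and 4 and 1.08 in replicate 3, whose list was the shortest at 13225 peaks. The percentile of lim-6 had a ratio of 0.857, with 90.4, 85.3 and 84.9 in replicates 1, 2 and 4 and 51.6 in replicate 3.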

How the results depend on the processing

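The count of homeobox genes with a pooled peak, 27, was 8 in the 2000 bp upstream alone, 4 among the 2000 strongest peaks and 0 at a deposited q-value of at most 0.05, against 24.1%, 9.67% and 0.245% of all genes. The count with a peak in all 4 replicates, 19, was 1 upstream (1.69% against 5.98% of all genes), 12 in gene bodies (20.3% against 13.3%) and 6 among the 10000 strongest peaks of each list (10.2% against 7.44%). Leaving out 1 replicate gave 20 to 35, the highest without replicate 3 (59.3% against 47.0%). The median pooled percentile, 55.3, was 46.2 with 1000 bp upstream, 66.9 upstream alone and 46.6 in gene bodies. The count matched in all 4 replicates, 0, was 2 within 500 bp and 0 to 2 with 1 replicate left out, the highest without replicate 4. The cause was not tested. The reproducible count stayed at 0 under the window alternatives. Adding ceh-44, chosen after seeing the data, gave 28, 20 and 56.3 for the first 3 values. No paired analysis was possible because there was 1 group. Read depth was unknown, and the pooled list cannot stand as a further replicate.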
